A study of Mus musculus with 10 samples.

Results

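Dap and 9 core autophagy genes (Map1lc3a, Map1lc3b, Gabarap, Gabarapl1, Gabarapl2, Sqstm1, Becn1, Ulk1 and Atg5) were followed in the RNA of mouse platelets, as 10 of the 23420 gene rows measured. Dap was chosen for its higher level in Tomato+ platelets, so that difference is described below and not tested. The other 9 were chosen by function. FACS of blood platelets from adult mice gave 5 Tomato+ and 5 Tomato- libraries, whose cDNA was made from polyadenylated RNA by a Smart-seq+ protocol. Tomato is a red fluorescent protein. No source used here gives its driver, the strain or the animals behind each library. Total counts were 5.41 to 16.2 M per library (M, 1000000 counts), and 807 to 2450 genes had a count. The 3 Tomato- libraries numbered 1, 2 and 5 had fewer than 1000 detected genes each, and no Tomato+ library had fewer than 1118. The platelet genes Ppbp (19122 ± 2631 CPM in Tomato+ against 17267 ± 4049 CPM in Tomato-, SD, n = 5 each) and Pf4 were high in all 10 libraries. CPM is counts per 1000000 counts of the library. The monocyte and macrophage marker Lyz2 was also high in all 10 libraries (7672 ± 1117 CPM in Tomato+ and 7857 ± 1189 CPM in Tomato-). Of the 6 markers of that list, 2 had any count, the other being Ly6c2 with 1 count in 1 Tomato+ library. The part of other blood cells in these libraries was not tested. In these bulk libraries, fewer platelets of a kind and less RNA per platelet cannot be told apart.

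Autophagy encloses cytoplasm in a double membrane and delivers it to lysosomes. The kinase ULK1 starts it, a lipid kinase complex built around Beclin 1 (Becn1) marks the site, and the ATG5 conjugate helps attach the small ubiquitin-like proteins of the LC3 and GABARAP families to the membrane, where receptors such as p62 (Sqstm1) tether cargo. DAP (death-associated protein) is known from human cells as a suppressor of autophagy that mTOR phosphorylates. Platelets have no nucleus, carry RNA from their parent megakaryocyte, and are known to contain autophagy machinery.

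The coding sequences of Dap and of the LC3 and GABARAP genes are short, at 309 to 378 bases with the stop codon. The first 180 of the 309 bases of Dap are shown because Dap is the most abundant member. Capitals mark the serine codons 3 and 51, counted from the start codon, which correspond to the serines that mTOR phosphorylates in human DAP.
Dap: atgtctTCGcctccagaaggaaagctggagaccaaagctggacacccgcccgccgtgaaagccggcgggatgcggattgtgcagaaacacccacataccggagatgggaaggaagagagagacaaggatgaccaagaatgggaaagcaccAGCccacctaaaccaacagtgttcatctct
The last 36 bases of the Map1lc3a, Gabarap, Gabarapl1 and Gabarapl2 coding sequences are shown because this is where the family is processed. Capitals mark the last glycine codon, to which the protein is trimmed by ATG4 proteases before it is joined to lipid.
Map1lc3a: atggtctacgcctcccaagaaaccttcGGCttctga
Gabarap: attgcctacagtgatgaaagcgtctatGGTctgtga
Gabarapl1: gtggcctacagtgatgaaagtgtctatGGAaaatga
Gabarapl2: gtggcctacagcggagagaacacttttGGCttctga
In all 4 of these genes 1 codon lies between that glycine and the stop, while the end of Map1lc3b is not shown. Between these 4 genes the coding sequences were 54.4 to 74.9% identical over aligned bases, gaps left out, highest between Gabarap and Gabarapl1. No pair came near the 95% used to call a near-identical copy.

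Dap was the most abundant of the 10 genes in every library. It lies on chromosome 15 (31224314 to 31274341, plus strand, GRCm38), and its exons overlap no other annotated gene. In Tomato+ libraries it had 5867, 5608, 9028, 5272 and 4539 CPM in replicates 1 to 5, against 2652, 3574, 4818, 5665 and 2473 CPM in Tomato-. The groups overlap: Tomato+ replicates 2, 4 and 5 lay below Tomato- replicate 4, and Tomato+ replicate 5 also lay below Tomato- replicate 3. The 3 lowest of the 10 values were the Tomato- libraries with few detected genes. The means were 6063 ± 1731 CPM in Tomato+ against 3836 ± 1382 CPM in Tomato- (SD, n = 5 each), a ratio of 1.58. The log2 fold change from edgeR was 0.82. It ranged from 0.62 to 1.11 with any 1 library left out, lowest without Tomato+ replicate 3 and highest without Tomato- replicate 4.

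**Figure D1:**
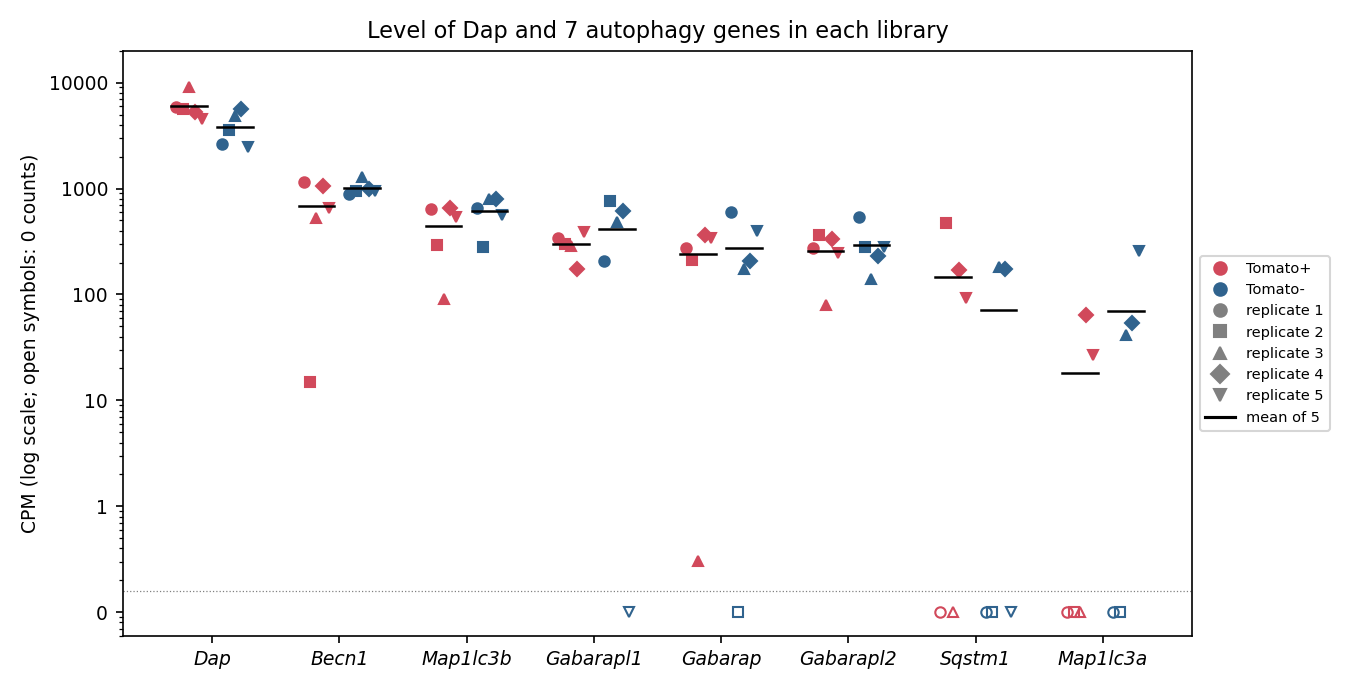
CPM on a log scale for 8 of the genes, with 1 symbol per library (Tomato+ left of Tomato- for each gene, shape by replicate number), bars at the mean of 5 libraries and open symbols for 0 counts. Dap sits between 2473 and 9028 CPM in all 10 libraries, while Gabarap, Sqstm1 and Map1lc3a reach 0 or close to it in some libraries of both groups.

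The number of detected genes moved with the level of Dap differently in the 2 groups. Within Tomato-, the libraries with 807 to 978 detected genes had 2473 to 3574 CPM of Dap, and those with 1838 and 2430 had 4818 and 5665 CPM. Within Tomato+, the library with the fewest detected genes (1118, replicate 3) had the most Dap and that with the most (2450, replicate 5) had the least. Without the 3 Tomato- libraries under 1000 detected genes the estimate for Dap dropped to 0.28 on the log2 scale. The part of detection in the difference was not tested further.

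**Figure D2:**
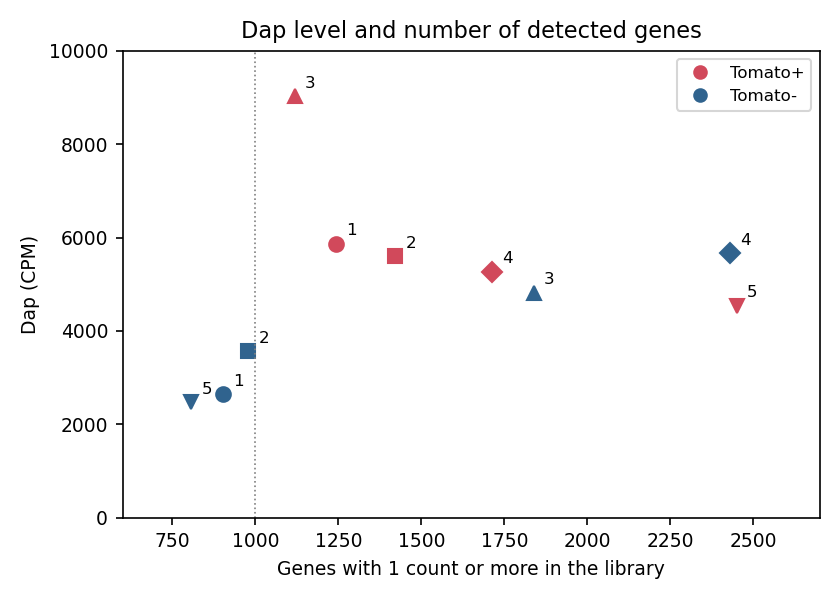
Dap (CPM) against the number of genes with 1 count or more, 1 numbered symbol per library, Tomato+ in red and Tomato- in blue, with a dotted line at 1000 genes. The 3 libraries left of the line are all Tomato- and hold the 3 lowest Dap values, from 2473 to 3574 CPM.

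Levels of different genes were compared per length, as counts per kilobase of exon per 1000000 counts (RPKM). Dap averaged 3149 ± 899 RPKM in Tomato+ and 1993 ± 718 RPKM in Tomato- libraries. Its mean over all libraries ranked 23 among 21737 genes with an annotated length, most of which had no count (Atg5, at 0, ranked 4428). Dap stood 12.1 to 32.9 times above the highest other member in Tomato+ libraries and 4.27 to 10.5 times above it in Tomato-. The highest other member was not the same gene in every library. Because Dap was chosen for its higher level in Tomato+, the larger ratios there follow in part from that choice. The RPKM of Dap did not overlap that of any other member. Below it came Gabarapl1 (177 ± 111 RPKM over all 10 libraries), Gabarap (139 ± 98.4), Becn1 (120 ± 51.7), Gabarapl2 (119 ± 54.1), Map1lc3b (70.5 ± 31.1), Map1lc3a (37.4 ± 66.5) and Sqstm1 (32.3 ± 44.5 RPKM). Each of these neighbours overlapped the next over the libraries. With the longest transcript as the length, Becn1 (194 RPKM) and Gabarap (190 RPKM) changed places, as did Sqstm1 (40.5 RPKM) and Map1lc3a (39.7 RPKM).

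The LC3 and GABARAP genes gave most libraries a mixed set, led most often but not always by Gabarapl1. Per length, Gabarapl1 led in 6 libraries, Gabarap in 2, and Gabarapl2 and Map1lc3a in 1 each. The 5 genes together had 1539, 1169, 458, 1586 and 1538 CPM in Tomato+ replicates 1 to 5, against 2004, 1332, 1624, 1896 and 1500 CPM in Tomato-. Tomato+ replicate 3 stood lowest by far, and without it the Tomato+ mean was 1458 CPM in place of 1258, against 1671 CPM in Tomato-.

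Map1lc3b, which encodes the LC3 form most used to follow autophagosomes (chromosome 8, 121590361 to 121598760), had counts in all 10 libraries. It had 646, 291, 91.3, 654 and 533 CPM in Tomato+, against 660, 283, 788, 792 and 565 CPM in Tomato-. Replicate 2 was low in both groups, and Tomato+ replicate 3 was lower still. The edgeR estimate was -0.32 on the log2 scale (SE 1.08, 95% interval -2.62 to 1.97). Map1lc3a, its sister (chromosome 2, 155276297 to 155278073), was seen in 2 Tomato+ libraries (63.4 and 26.7 CPM in replicates 4 and 5) and 3 Tomato- libraries (41.5, 53.4 and 256 CPM in replicates 3, 4 and 5). Its Tomato- mean of 70.3 CPM was 23.7 CPM without replicate 5, and its Tomato+ mean of 18 CPM was 6.67 CPM without replicate 4.

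Among the GABARAP genes, which act in later autophagosome steps and in receptor traffic, Gabarapl2 was the steadiest. Gabarapl2 (chromosome 8, 111940703 to 111953612) had 277, 365, 79.9, 331 and 244 CPM in Tomato+, against 544, 280, 141, 229 and 283 CPM in Tomato-. All 10 libraries had counts, with the lowest again in Tomato+ replicate 3. Gabarap (chromosome 11, 69991143 to 69994951) had 276, 211, 0.307, 364 and 342 CPM in Tomato+, against 596, 0, 173, 206 and 395 CPM in Tomato-. The value in Tomato+ replicate 3 rests on 2 counts, and Tomato- replicate 2 had 0, while the other 8 libraries lay between 173 and 596 CPM. Gabarapl1 (chromosome 6, 129533160 to 129542346) had 341, 302, 287, 173 and 392 CPM in Tomato+, against 205, 769, 481, 615 and 0 CPM in Tomato-. Tomato+ was the narrower group here, and Tomato+ replicate 3 was not low. Fold changes of the 3 genes were 0.09 (SE 1.51) for Gabarapl2, 0.05 (SE 1.97) for Gabarap and -0.27 (SE 1.68) for Gabarapl1 on the log2 scale. With scaling by total counts those of Gabarapl2 and Gabarap were -0.19 each.

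Tomato+ replicate 3 thus held the highest Dap and the lowest Map1lc3b and Gabarapl2 of all 10 libraries. Its Dap was 24.8 times its summed LC3 and GABARAP level per length, while this ratio was 4.07 to 6.33 in the other Tomato+ libraries and 1.85 to 4.69 in Tomato-. In this library Gabarap had 2 counts and Map1lc3a 0. Its 1118 detected genes and 6.51 M counts were the fewest in Tomato+. Larger ratios in Tomato+ follow in part from the choice of Dap for its higher level there. Tomato+ replicate 3 also had 1922 CPM of Lamp2, which encodes a lysosomal membrane protein, the highest of all libraries.

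Of the members that act in initiation and conjugation, Becn1 was abundant while Ulk1 and Atg5 were at or next to 0. Becn1, the scaffold of the lipid kinase complex (chromosome 11, 101285952 to 101302286, minus strand), had 1164, 15, 522, 1064 and 660 CPM in Tomato+, against 883, 939, 1275, 991 and 942 CPM in Tomato-. The Tomato- values spread less than those of Tomato+, with replicate 3 above the rest, and Tomato+ replicate 2 lay far below every other library. The means were 685 ± 461 CPM in Tomato+ against 1006 ± 155 CPM in Tomato- (SD, n = 5 each), with 853 CPM in Tomato+ without replicate 2. The edgeR estimate was -0.37 on the log2 scale (SE 0.86, 95% interval -2.19 to 1.45), or -0.05 without that library. Ulk1, the initiating kinase gene (chromosome 5, 110784488 to 110810097, minus strand), had 0 counts in all 5 Tomato+ libraries and 1 count in all of Tomato-, in replicate 1. Atg5, which encodes the conjugation protein (chromosome 10, 44268358 to 44364291), had 0 counts in all 10 libraries. A count of 0 allows up to 0.185 to 0.554 CPM by library, for counting error only. Gabarapl1, at 769 CPM in 1 Tomato- library, was at 0 in another, so such a limit says little of the level in the platelets.

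Sqstm1, the cargo receptor gene (chromosome 11, minus strand), had 468, 170 and 93.0 CPM in Tomato+ replicates 2, 4 and 5 and 0 in replicates 1 and 3, against 180 and 173 CPM in Tomato- replicates 3 and 4 and 0 in the other 3. The edgeR estimate was 1.04 on the log2 scale (SE 2.82), or -0.03 without Tomato+ replicate 2, whose removal takes the Tomato+ mean to 65.6 CPM, against 70.7 CPM in Tomato-. Sqstm1 and Map1lc3a were seen together in 4 libraries, which were the 4 with the most detected genes (1713 or more).

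None of the 7 other members tested was called between Tomato+ and Tomato- platelets. In edgeR 0 of 1016 genes (0%) had an adjusted p under 0.05, with 9 at an unadjusted p under 0.05, none of them among these 7. Each of the 7 had an edgeR adjusted p of 0.9996, with unadjusted p from 0.569 to 0.981. DESeq2 called 216 of 2241 genes (9.64%) and limma voom 1 of 1016 (0.0984%), and neither called any of these 7. On the TMM scale 3 of the 7 had a positive and 4 a negative log2 fold change, with a median of -0.27, beside 592 of 1016 positive and a median of 0.21 over all genes tested. With scaling by total counts 1 of the 7 was positive, the median was -0.47, and that of all genes was -0.03. The 95% intervals reached from -7.57 to 7.03 across these genes, so differences of several-fold in either direction lay inside most of them.

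**Figure D3:**
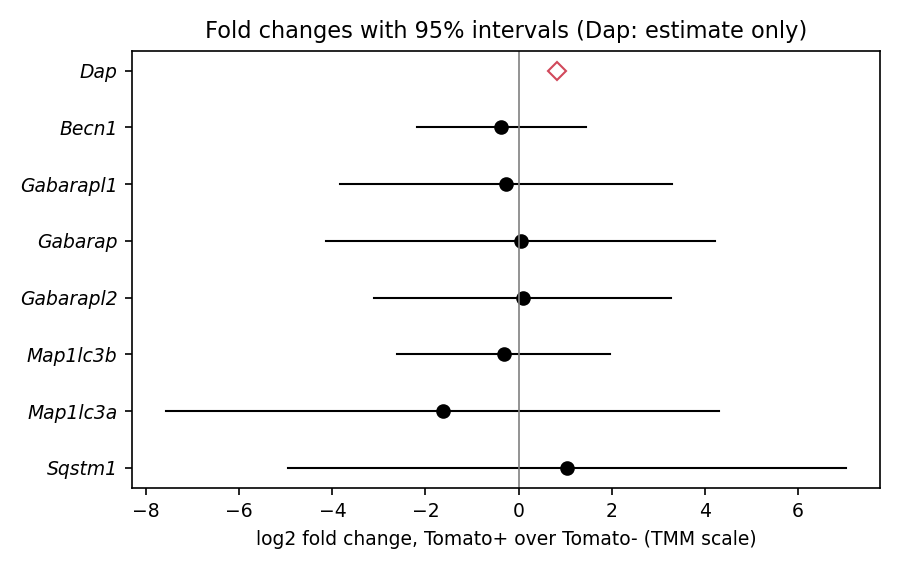
Log2 fold changes, Tomato+ over Tomato- (edgeR, TMM scale), with 95% intervals as lines for 7 members and the estimate alone for Dap (open diamond). Every interval crosses 0, and the narrowest is that of Becn1, from -2.19 to 1.45.

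The rest of the pathway was covered in part. Of all 23420 rows, 4692 had a count in any library, 264 had one in every library, and 1016 were tested in edgeR. Over 7 further lists with 76 genes, these numbers were 38, 2 and 10, each a larger share of the genes listed. Of these 10, none was called, 6 had a positive and 4 a negative log2 fold change, and the median was 0.25, beside 0.21 over all genes tested. Initiation genes had counts for 3 of 11 members and conjugation enzymes for 5 of 10, none in every library. Their summed levels were 9.29 ± 20.8 CPM in Tomato+ and 11.2 ± 20.8 CPM in Tomato- for initiation, and 68.3 ± 107 CPM in Tomato+ and 92 ± 139 CPM in Tomato- for conjugation (SD, n = 5 each). Lipid supply genes had counts for 4 of 8 members, and mTORC1 and AMPK control genes for 8 of 16, with 1 tested. Of 5 genes with names or sequences close to Dap, Dapk1, a calmodulin-regulated kinase gene, alone had counts (56.4 ± 92.5 CPM in Tomato+ and 68.7 ± 97.5 CPM in Tomato-; named after its values were seen).

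Cargo receptors and lysosomal membrane proteins held the 2 genes of these lists that were present throughout. Bnip3l, a mitophagy receptor gene that red cell precursors use to clear mitochondria, had 1340, 1202, 676, 1589 and 797 CPM in Tomato+, against 1015, 2465, 734, 791 and 281 CPM in Tomato-. Both the highest and the lowest value lay in Tomato-. The edgeR estimate was 0.38 on the log2 scale (SE 0.62), and the Tomato- mean of 1057 CPM was 705 CPM without replicate 2, against 1121 CPM in Tomato+. The haemoglobin row Beta-s, a red cell marker, had 1.38 to 338 CPM in Tomato+ and 44.2 to 3257 CPM in Tomato-, and its lowest Tomato- value stood in replicate 2, where Bnip3l was highest. Bsg, the other red cell marker with counts in most libraries, lay the other way, with 430 to 939 CPM in Tomato+ and 0 to 702 CPM in Tomato-. Neither difference was called in edgeR. Red cell markers had counts for 4 of 7 matched rows and summed to 504 to 1052 CPM in Tomato+ and 47.8 to 4021 CPM in Tomato-, with the haemoglobin rows Hba-a1 and Hba-a2 and the band 3 gene Slc4a1 at 0 in all libraries; their part in the Bnip3l values was not tested. Lamp2 averaged 1086 ± 483 CPM in Tomato+ against 895 ± 339 CPM in Tomato- libraries (0.45 on the log2 scale, SE 0.62). Lamp1, its partner in the lysosomal membrane, had counts in 9 libraries, with 786 to 1999 CPM in Tomato+ and 0 to 2142 CPM in Tomato- (named after its values were seen).

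The genes whose pattern over the libraries lay nearest to that of Dap were Birc2, Zyx, Serf2, Ecm1 and Clu, among 224 other genes with 10 counts or more in every library. Likeness was the mean absolute difference from Dap in log2(CPM + 1), each gene centred on its own mean over the 10 libraries. It was 0.250 for Birc2, which encodes an inhibitor of apoptosis protein, 0.270 for Zyx (zyxin, a focal adhesion protein), 0.273 for Serf2, 0.290 for Ecm1 (extracellular matrix protein 1) and 0.319 for Clu (clusterin), against a median of 0.653 over the 224. Birc2 averaged 1508 ± 283 CPM in Tomato+ against 998 ± 259 CPM in Tomato- libraries. Since Dap was chosen for its higher level in Tomato+, a gene picked for nearness to Dap tends to share that difference by the choice itself. Of the members present in all libraries, Gabarapl2 ranked 152, Map1lc3b 165 and Becn1 201 of 224 by this distance. This distance also grows with a gene's own spread between libraries, so the median and these ranks do not measure likeness of pattern alone. All genes compared share the libraries and their depth with Dap, and the ranking is a description with no test.

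**Figure D4:**
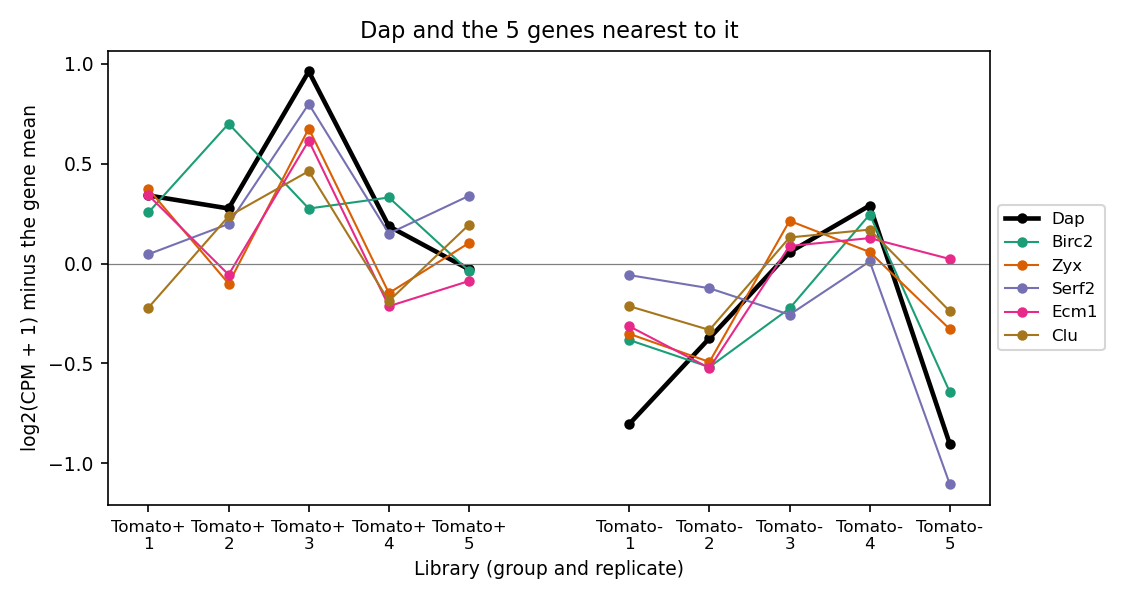
Log2(CPM + 1) minus each gene's mean over 10 libraries, for Dap (thick line) and the 5 genes nearest to it, Tomato+ on the left and Tomato- on the right; lines only join the values of 1 gene. Dap, Zyx, Serf2, Ecm1 and Clu peak in Tomato+ replicate 3, while Birc2 is highest in Tomato+ replicate 2.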

How the data were processed

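The authors deposited raw counts per gene symbol, unnormalized, in 1 table. Trimmomatic, FastQC, STAR and featureCounts are named, without versions, with build mm10 per the submitters' processing notes; no source used here states the annotation, strand setting or multi-mapping rules. Reads are not independent molecules, as no molecular identifiers were counted. No label ties libraries to animals, so p-values measure the spread between libraries, which may be technical. Each of 45 library pairs differed beyond sampling noise (chi-square per degree of freedom at least 510).

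All 10 member symbols matched rows. Genes were tested with edgeR 4.0.16 under R 4.3.3, with TMM factors, a robust quasi-likelihood fit with the group as its term, and the default filter (minimum count 10, minimum total 15), and Benjamini-Hochberg adjustment over all 1016 genes at 0.05, and the script was tested on simulated data. SE and 95% intervals follow from each fold change and F value. The filter kept 8 members, leaving out Ulk1 and Atg5. CPM used the sum of all rows; log2 fold changes are Tomato+ over Tomato-. RPKM used the union of exons in GENCODE M21 (GRCm38, the assembly of mm10), which also gave positions and sequences. In the further lists, 3 symbols were matched through RefSeq synonyms. Identity between coding sequences came from global alignment in Biopython 1.88 (match 1, penalties of 1 for a mismatch, 3 to open a gap and 1 to extend it). Copies were sought with BLAST+ 2.17.0 (300 bases or more at 95% identity or more): Map1lc3b has 4 and Gabarapl2 3 processed pseudogenes, and Becn1, Sqstm1, Gabarapl1 and Map1lc3b share exon bases with genes on the opposite strand, so their counts are less certain. Alternatives were DESeq2 1.42.0, limma 3.58.1 voom, other scalings and filters, a replicate block, thinning and left-out libraries. The members, lists and tests were chosen with earlier results of these data known. Named are the 10 members, further-list genes with a count in every library, the 5 genes nearest to Dap and leading markers; others are marked.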

Additional observations from a re-analysis of the deposited data

Results flagged for a closer look

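Values standing apart from the other 4 libraries of their group were sought by the ratio of the gap to the range (critical value 0.71 for 5 samples) in 23 groups of values; 4 stood out, where chance gives about 1 in 20. For Ulk1 that rate does not apply, since 1 library with counts among 5 always stands apart by this ratio. The rate assumes normally distributed values, so it is only rough for other groups with libraries at 0, such as Map1lc3a in Tomato-. Map1lc3a had 256 CPM in Tomato- replicate 5, against 0 to 53.4 CPM in the other Tomato- libraries. Becn1 had 1275 CPM in Tomato- replicate 3, against 883 to 991 CPM in the others. Ulk1 had 0.123 CPM in Tomato- replicate 1, which is 1 count, with 0 in the others. Lamp2 had 1922 CPM in Tomato+ replicate 3, against 682 to 996 CPM in the other Tomato+ libraries.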

How the results depend on the processing

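Over 20 alternative settings, genes were called with DESeq2 (216) and limma voom (1) alone, and none of the members other than Dap was among them; calls are not given for Dap, which was chosen for this difference. Dap kept a positive log2 fold change in all 20 (0.28 without the 3 Tomato- libraries with under 1000 detected genes). Gabarap turned to -0.19 with total counts, -0.17 with DESeq2 size factors and -0.15 with DESeq2. Gabarapl2 turned to -0.19, -0.13 and -0.12 in the same settings and to -0.11 on genes with 10 counts in every library. Gabarapl1 turned to 1.60 with limma voom and 0.18 with the replicate block. Sqstm1 was -0.27 without the 3 libraries. With no library left out or with those 3 left out, the settings spanned -1.30 to -0.30 for Becn1, -0.27 to 2.54 for Sqstm1, -0.19 to 1.41 for Gabarap, -0.84 to 1.60 for Gabarapl1, -0.19 to 0.46 for Gabarapl2, -0.87 to -0.19 for Map1lc3b, -2.60 to -1.37 for Map1lc3a and 0.28 to 0.94 for Dap, with Becn1 lowest (-1.30), and Sqstm1 (2.54) and Gabarap (1.41) highest, in limma voom. With 1 library left out, the fold changes ran from -0.37 to 0.46 (Gabarap), -0.16 to 0.37 (Gabarapl2), -0.03 to 1.90 (Sqstm1), -0.56 to -0.02 (Gabarapl1), -0.58 to -0.07 (Map1lc3b), -3.00 to -0.32 (Map1lc3a), -0.63 to -0.05 (Becn1) and 0.62 to 1.11 (Dap), and 0 genes were called in each. Map1lc3a, Map1lc3b and Becn1 kept a negative sign throughout. The cause of these turns was not tested. With the longest transcript as length, mean RPKM was 128 in place of 70.5 for Map1lc3b and 194 in place of 120 for Becn1, and Dap stayed first. With a pseudocount of 10 CPM, the 5 genes nearest to Dap were the same.

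Same-numbered libraries correlated at -0.11 to 0.12 in their deviations from group means, and 2 of 5 Tomato+ libraries correlated best with their own number. With only 264 of 23420 rows counted in every library, such correlations cannot show whether the numbers pair the libraries, and no label says so. With the replicate block edgeR called 0 genes. Ulk1 and Atg5 had too few counts in these libraries to be compared.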
